A study of Mus musculus with 10 samples.

Results

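A set of 8 genes of DNA damage recognition and alkylation repair was followed in mouse lung RNA: *Xpc*, *Rad23b*, *Cetn2*, *Xpa*, *Ercc5*, *Mgmt*, *Mpg* and *Gadd45a*. They were chosen by gene symbol from the platform annotation, each has 1 probe set, and they are 8 of the 19505 genes on the array. The choice was made with earlier results of these arrays known, in which *Xpc*, *Cetn2* and *Gadd45a* stood out between dacarbazine and water and *Xpc* and *Ercc5* between SQ-diEG at 5 mg/kg and water. Their values in those comparisons, and in dacarbazine against the other arrays, are therefore given as a description with no test.

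Male C57BL/6J mice aged 6 weeks, 40 in all and 8 to a group, were treated for 20 days. The control group was not injected with tumour cells and had water as its treatment. The model group carried B16F10 cells, a melanoma line derived from C57BL/6 mice, and likewise had water. The other groups were also injected with B16F10 and given dacarbazine (DTIC) at 70 mg/kg per day, or the compound SQ-diEG, known here by that name only, at 5 or 25 mg/kg per day. Each of the 5 groups has 2 arrays. The labels give neither the number of mice behind an array, whether single or pooled, nor the route of injection. Errors and p-values therefore rest on the spread between arrays, which may be technical. The SEs and p-values come from a fit with 5 residual and 51 prior degrees of freedom. They thus follow the spread typical of all genes more than a gene's own, which the SDs show.

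Dacarbazine is a prodrug that the liver turns into a methylating agent, and the methyl groups land mostly on the bases of DNA. Cells have several answers to such damage: a suicide enzyme, encoded by *Mgmt*, that takes the alkyl group off guanine, a glycosylase, encoded by *Mpg*, that cuts methylated purines out and so starts base excision repair, and, for bulky lesions, nucleotide excision repair. In that last pathway a complex of the products of *Xpc*, *Rad23b* and *Cetn2* finds the distorted helix, the product of *Xpa* helps to verify the lesion, and that of *Ercc5* (XPG) is a nuclease that cuts the damaged strand. *Gadd45a* is a growth arrest and DNA damage gene, best known as a target of p53.

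RefSeq promoter windows (GRCm38.p6) were found for 7 of the 8 genes, all but *Xpc*. Those of *Cetn2* and *Gadd45a* are printed because these genes lay at opposite ends of the dacarbazine difference among the 7. Each run is the 250 bases before the annotated start, from 5′ to 3′ on the gene's strand, and capitals mark the CCAAT box (CCAAT), the GC box (GGGCGG) and the octamer (ATGCAAAT), searched on both strands.
*Cetn2*, chrX:72918345-72918594, minus strand: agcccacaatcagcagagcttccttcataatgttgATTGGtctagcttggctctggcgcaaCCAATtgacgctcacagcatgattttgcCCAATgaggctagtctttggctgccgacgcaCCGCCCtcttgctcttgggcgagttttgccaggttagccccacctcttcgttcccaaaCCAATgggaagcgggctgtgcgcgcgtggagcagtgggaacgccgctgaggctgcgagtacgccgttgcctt
*Gadd45a*, chr6:67037408-67037657, minus strand: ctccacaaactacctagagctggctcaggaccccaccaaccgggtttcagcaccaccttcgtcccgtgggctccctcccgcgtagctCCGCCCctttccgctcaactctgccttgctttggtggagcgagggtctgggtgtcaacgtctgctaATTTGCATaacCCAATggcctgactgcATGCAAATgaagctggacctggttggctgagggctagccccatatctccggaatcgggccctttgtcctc
The *Cetn2* window held 4 CCAAT boxes and 1 GC box and no octamer, and the *Gadd45a* window held 1 CCAAT box, 1 GC box and 2 octamers. Marked motifs did not overlap in these windows. Of 32851 RefSeq windows of this length, 33.8% held a CCAAT box, 32.7% a GC box and 1.6% an octamer. The *Cetn2* window had 16 CpG dinucleotides and the *Gadd45a* window 11, where the median window had 6. Among the other members, *Mgmt* had 4 GC boxes in the window of 1 of its 2 listed starts and *Mpg* had 3. The matches describe the sequence and were not tested as sites.

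All levels below are deposited log2 values, 1 per probe set and array. Over the tested genes, which do not count as replicates, any pair of arrays correlated with a Pearson r of 0.111 to 0.237, and r averaged 0.194 within groups and 0.184 between them. Arrays of a group thus agreed hardly better than arrays of different groups, and no pair agreed closely. This limit holds for the tested genes as a whole and not only for the members. A detection level was taken on each array as the 95th percentile of its 5222 probe sets named as negative controls; it lay between 10.67 and 11.05, and 0.287% to 0.42% of genes exceeded it on an array. Control probe sets named as positive had medians of 7.34 to 7.58, on every array below the median of the negative ones, 7.56 to 7.74. Of the lung markers, none of 8 type II cell, 7 type I and airway, 10 endothelial and stromal or 13 immune genes exceeded that level on any array, and none of 10 melanocyte genes did, so neither the tissue nor the tumour line could be checked from its markers. The mean of each of these lists lay between 6.74 and 8.10 on every array. The glycolytic enzyme *Gapdh* exceeded the detection level on 4 arrays and the actin gene *Actb* on 0. The 4 hybridization controls, transcripts added to the mix, averaged 8.47 and 8.68 on the control arrays, 10.28 and 10.99 on the model arrays, 9.22 and 10.28 with DTIC, 9.10 and 10.15 with SQ-diEG at 5 mg/kg and 10.27 and 10.92 at 25 mg/kg.

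Of the 8 genes, 7 stayed under the detection level on all 10 arrays. The exception was *Cetn2* on the first DTIC array, where it read 11.08 against a level of 10.76. For comparison, 2.63% of all 19505 genes exceeded it on at least 1 array. Among the negative controls, *Xpc* reached the 90.8th percentile on the second model array, *Gadd45a* the 87th, *Ercc5* the 83.1st, *Rad23b* the 78.9th, *Mgmt* the 75.5th, *Mpg* the 60.1st and *Xpa* the 54.2nd at their highest. *Mpg* exceeded the mean of the 23 background probe sets on 1 array of 10, *Rad23b* on 3, *Cetn2* on 4, *Xpc* and *Xpa* on 5, *Gadd45a* on 6 and *Ercc5* and *Mgmt* on 8. Most differences below are thus between levels in the range of the negative controls. In bulk lung RNA, fewer cells of a type and less RNA per cell cannot be told apart.

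**Figure D1:**
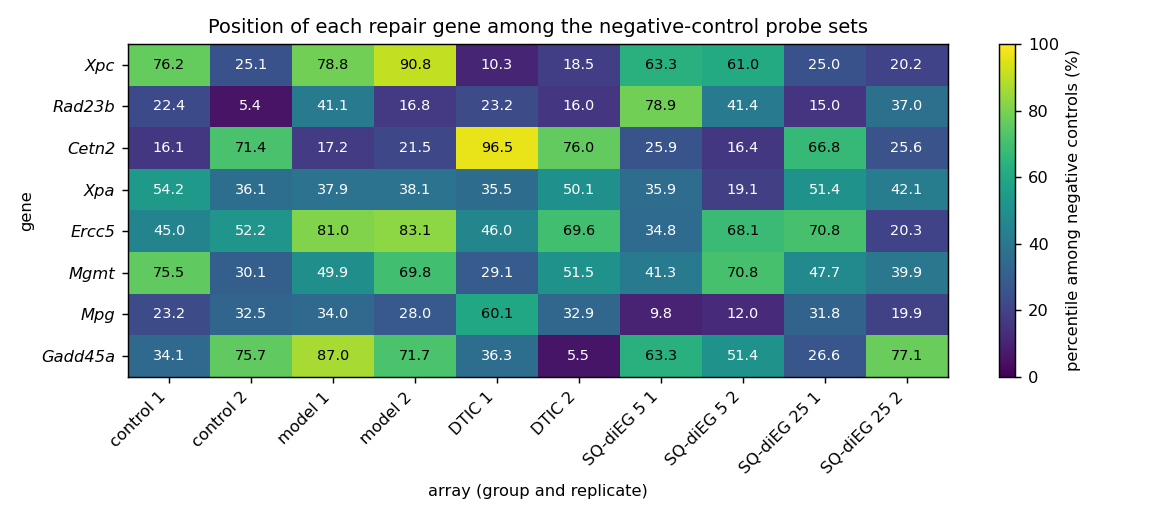
Percentile of each gene's value among the 5222 negative-control probe sets (colour and number, in percent) for the 8 genes (rows) on the 10 arrays (columns). A single square, *Cetn2* on the first DTIC array at 96.5, lies above 95.

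Of the recognition complex, *Xpc*, which encodes the damage sensor, read 8.86 and 6.54 on the control arrays, 9.13 and 10.09 on the model arrays, 5.71 and 6.28 with DTIC, 8.28 and 8.14 with SQ-diEG at 5 mg/kg and 6.52 and 6.42 at 25 mg/kg. Both DTIC arrays lay below the other 8, whose lowest was 6.42, and the model arrays were the highest. Group means were 9.61 ± 0.67 in the model group, 8.21 ± 0.10 with SQ-diEG at 5 mg/kg, 7.70 ± 1.64 in the control group, 6.47 ± 0.07 at 25 mg/kg and 6.00 ± 0.40 with DTIC (SD, n = 2 each). The control arrays lay far apart, and their range covered that of SQ-diEG at 5 mg/kg. Along that order the arrays of the model and 5 mg/kg groups did not overlap, and the step of 0.47 between 25 mg/kg and DTIC was smaller than the SD within groups, 0.81.

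*Cetn2*, the centrin of the complex, a calcium-binding protein also found at centrioles, stood on the opposite side. It read 6.06 and 8.59 on the control arrays, 6.25 and 6.34 on the model arrays, 11.08 and 8.99 with DTIC, 6.60 and 6.06 with SQ-diEG at 5 mg/kg and 8.37 and 6.65 at 25 mg/kg. Both DTIC arrays lay above the other 8; the highest of these read 8.59. The DTIC mean was 10.04 ± 1.48 (SD, n = 2), followed by 7.51 ± 1.22 at 25 mg/kg, 7.33 ± 1.79 in the control group, 6.33 ± 0.38 at 5 mg/kg and 6.30 ± 0.06 in the model group, and of these neighbours only DTIC and 25 mg/kg had arrays that did not overlap. *Rad23b*, which stabilises the sensor, read 6.39 and 5.35 on the control arrays, 7.36 and 6.08 on the model arrays, 6.48 and 6.13 with DTIC, 9.09 and 7.25 at 5 mg/kg and 6.01 and 7.14 at 25 mg/kg. The first 5 mg/kg array stood alone, and every pair of neighbouring groups overlapped. By group mean, DTIC was lowest for *Xpc*, highest for *Cetn2* and next to lowest for *Rad23b*. The *Rad23b* order rests on overlapping groups, and that gene exceeded the median of the negative controls on 1 array of 10. How often 3 genes differ in group order was not tested.

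**Figure D2:**
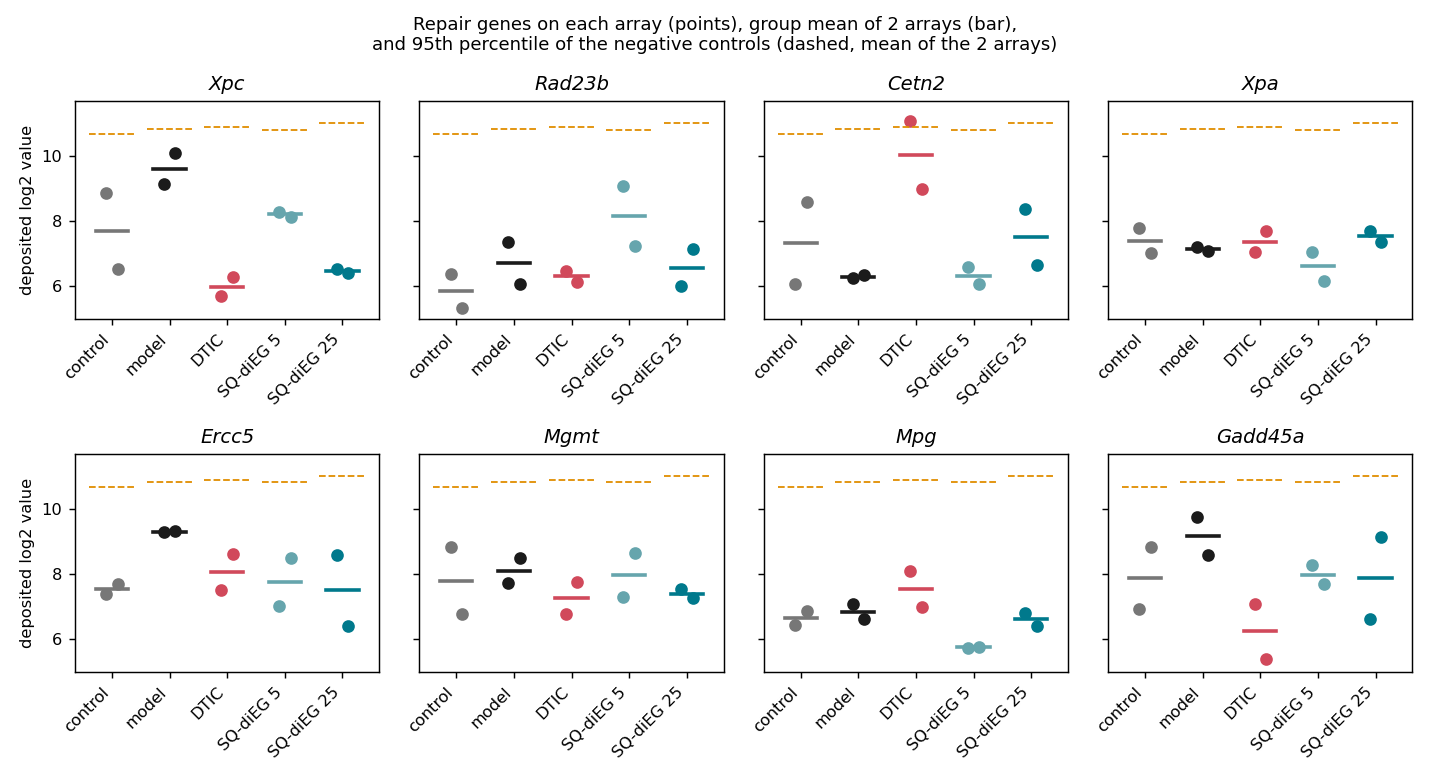
Deposited log2 value (vertical axis) of each of the 8 genes in the 5 groups (horizontal axis). Points are arrays, bars are means of 2 arrays and the dashed line is the detection level (95th percentile among negative controls). The DTIC points are the lowest for *Xpc* (5.71 and 6.28) and the highest for *Cetn2* (11.08 and 8.99).

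Among the later steps, *Xpa*, the verification factor, read 7.79 and 7.02 on the control arrays, 7.22 and 7.08 on the model arrays, 7.05 and 7.69 with DTIC, 7.06 and 6.18 at 5 mg/kg and 7.70 and 7.37 at 25 mg/kg. It varied little: its SD within groups was 0.44, and 4.29% of genes had a smaller one. Only at 5 mg/kg did the arrays not overlap those of the neighbouring group, the model. The gap was narrow, 7.06 on the first 5 mg/kg array against 7.08 on the second model array. The second control array, at 7.02, and the first DTIC array, at 7.05, lay between the 5 mg/kg arrays. *Ercc5*, the nuclease gene, read 7.39 and 7.69 on the control arrays, 9.28 and 9.32 on the model arrays, 7.51 and 8.61 with DTIC, 7.03 and 8.49 at 5 mg/kg and 8.59 and 6.42 at 25 mg/kg. The model arrays lay above all others and agreed closely (9.30 ± 0.03, SD, n = 2), while the remaining groups, with means of 7.50 to 8.06, overlapped as neighbours.

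Of the genes that act on alkylated bases themselves, *Mgmt* read 8.82 and 6.78 on the control arrays, 7.72 and 8.50 on the model arrays, 6.76 and 7.75 with DTIC, 7.29 and 8.64 at 5 mg/kg and 7.53 and 7.26 at 25 mg/kg. All neighbouring groups overlapped, and group means spanned 7.25 (DTIC) to 8.11 (model), within the SD within groups of 0.87. *Mpg* read 6.44 and 6.86 on the control arrays, 7.07 and 6.62 on the model arrays, 8.08 and 6.99 with DTIC, 5.74 and 5.77 at 5 mg/kg and 6.82 and 6.40 at 25 mg/kg. Its DTIC mean, 7.54 ± 0.77 (SD, n = 2), was the highest, but the second DTIC array lay below the first model array. *Mpg* is the member that did not pass the filter on dim probe sets, and its differences come from a fit without that filter.

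*Gadd45a* read 6.93 and 8.82 on the control arrays, 9.76 and 8.60 on the model arrays, 7.09 and 5.40 with DTIC, 8.28 and 7.69 at 5 mg/kg and 6.61 and 9.14 at 25 mg/kg. The DTIC mean, 6.25 ± 1.20, was the lowest and the model mean, 9.18 ± 0.82 (SD, n = 2 each), the highest, but the first DTIC array lay above the lowest control and 25 mg/kg arrays. Its SD within groups, 1.20, exceeded that of 81% of genes. Its paralogue *Gadd45b*, also a damage and stress gene, averaged 9.08 ± 0.02 in the control group, 7.35 ± 0.62 in the model group and 6.72 ± 0.57 with DTIC (SD, n = 2 each). *Gadd45g* averaged 7.54 ± 1.71, 7.09 ± 0.10 and 7.63 ± 0.51 in the same groups. For neither paralogue was the model group the highest, as it was for *Gadd45a*. Among centrins, *Cetn1*, *Cetn3* and *Cetn4* averaged 6.57 ± 1.92, 7.40 ± 0.63 and 8.81 ± 3.01 with DTIC (SD, n = 2 each), where *Cetn4* read 10.94 and 6.68. The DTIC mean was the lowest of the 5 groups for *Cetn1* and the highest for *Cetn3*. For *Cetn4* the highest mean was at 5 mg/kg, 9.69 ± 0.21 (SD, n = 2).

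Set against the mean of the other 4 groups, DTIC arrays were higher for *Cetn2* by 3.17 (SE 0.78) on the log2 scale and lower for *Xpc* and *Gadd45a*, at -2.00 (SE 0.76) and -1.98 (SE 0.78). *Mpg* differed by 1.07 (SE 0.72), *Mgmt* by -0.56 (SE 0.76), *Rad23b* by -0.53 (SE 0.76), *Xpa* by 0.19 (SE 0.74) and *Ercc5* by 0.03 (SE 0.76). The 8 genes split into 4 higher and 4 lower, and the SD of this difference over all 19011 tested genes was 0.766. In size, the *Cetn2* difference was matched or exceeded by 3 of the 19011 genes, itself included, that of *Xpc* by 178 and that of *Gadd45a* by 188. For *Mpg*, which is not among the 19011, the number was 3052. It was 8837 for *Mgmt*, 9385 for *Rad23b*, 15299 for *Xpa* and 18339 for *Ercc5*. DTIC arrays did not overlap the other 8 for 2 of the 8 genes, *Cetn2* and *Xpc*, as for 3.9% of all genes. These values chose the genes and carry no test. Over all genes 0 of 19011 (0%) passed limma at a Benjamini-Hochberg adjusted p under 0.05, and 826 (4.34%) had an unadjusted p under 0.05. Without the first DTIC array the *Cetn2* difference was 2.13, and without the second that of *Gadd45a* was -1.14. Without the control arrays, whose hybridization controls were the lowest, the differences of *Cetn2*, *Xpc* and *Gadd45a* were 3.33, -2.10 and -2.10.

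**Figure D3:**
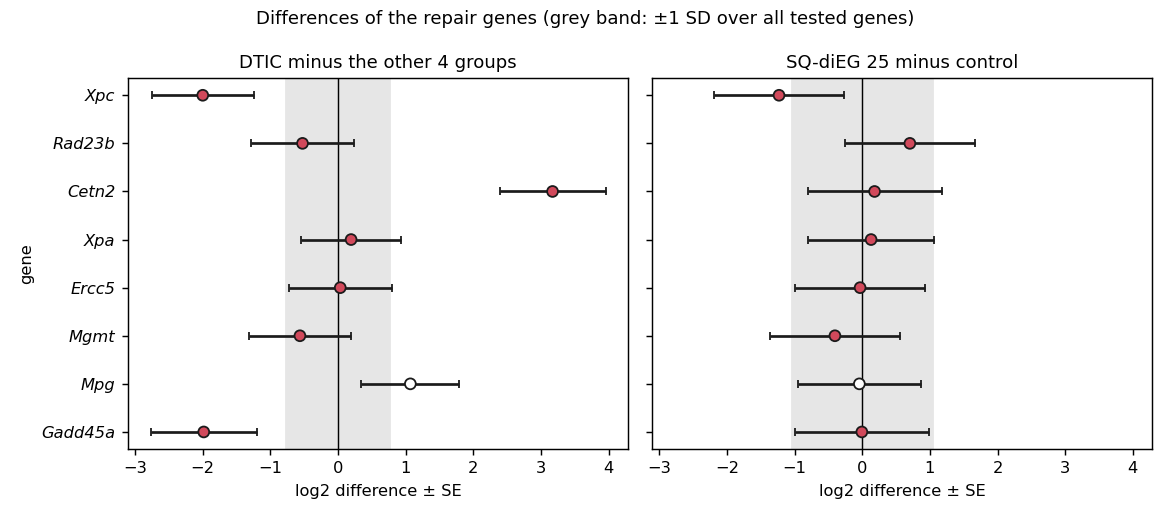
Log2 difference with its SE (horizontal axis) for each gene (vertical axis), DTIC minus the mean of the other 4 groups on the left and SQ-diEG at 25 mg/kg minus control on the right. The open point, *Mpg*, comes from the fit without a filter, and the grey band is 1 SD of the difference over all tested genes (0.766 left, 1.04 right). *Cetn2*, *Xpc*, *Gadd45a* and *Mpg* lie outside the band with DTIC.

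The comparisons with the model group share its 2 arrays, so their values for the genes are set side by side and not counted as separate evidence. Against those arrays *Xpc* differed by -3.62 with DTIC, -1.40 with SQ-diEG at 5 mg/kg and -3.14 at 25 mg/kg (SE 0.96 each). *Ercc5* differed by -1.24, -1.54 and -1.80 (SE 0.96 each), and *Gadd45a* by -2.94, -1.20 and -1.31 (SE 0.99 each). *Cetn2* differed by 3.74, 0.03 and 1.21 (SE 0.99 each). In the same order *Rad23b* stood at -0.41, 1.45 and -0.14 (SE 0.96 each), *Mgmt* at -0.86, -0.14 and -0.72 (SE 0.96 each), *Xpa* at 0.22, -0.53 and 0.38 (SE 0.93 each) and *Mpg* at 0.69, -1.09 and -0.24 (SE 0.91 each). With 1 array left out, the difference of *Xpc* from the model group was -4.09 to -3.14 with DTIC. It was -1.88 to -0.93 at 5 mg/kg and -3.62 to -2.67 at 25 mg/kg. Its sign could not turn, because no array of these groups overlapped the model arrays for *Xpc*. At 25 mg/kg *Gadd45a* stood at -0.05 and *Cetn2* at 0.35 without the first 25 mg/kg array, and *Ercc5* stood at -0.71 without the second. Both model arrays lay above both control arrays for *Ercc5*, by 1.77 (SE 0.96) in the mean, and for *Xpc*, by 1.91 (SE 0.96). The *Gadd45a* means differed by 1.30 (SE 0.99), but its arrays overlapped, the second model array at 8.60 lying below the second control array at 8.82. Without the second control array the *Xpc* difference was 0.76 and without the first 3.07; that of *Gadd45a* ran from 0.36 without the first control array to 2.25 without the second, while that of *Ercc5* stayed between 1.62 and 1.92. For the remaining genes the model-minus-control differences were 0.85 for *Rad23b*, 0.31 for *Mgmt*, 0.19 for *Mpg*, -0.25 for *Xpa* and -1.03 for *Cetn2*, and the sign turned with 1 array left out for *Mgmt* (-0.71 to 1.33), *Xpa* (-0.63 to 0.13) and *Cetn2* (-2.29 to 0.23). Model and control arrays did not overlap for 2 of the 8 genes (34.3% of all genes), DTIC and model arrays for 4 (32.4%), and SQ-diEG and model arrays for 5 at 5 mg/kg (33.5%) and 5 at 25 mg/kg (33.4%). In these 4 comparisons limma called 0 of 19011 genes (0%), and 1092, 925, 1005 and 997 had an unadjusted p under 0.05 in the order named. The hybridization controls were also higher on the model than on the control arrays, and their part in these differences was not tested.

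SQ-diEG at 25 mg/kg against control is a comparison that shares no array with the contrasts against the model group behind the choice, and here none of the 7 genes that passed the filter passed the test. *Xpc* differed by -1.23 (SE 0.96; adjusted p = 0.899 from limma), and the 25 mg/kg arrays, at 6.52 and 6.42, lay just below the lower control array at 6.54. *Rad23b* differed by 0.70 (SE 0.96; limma adjusted p = 0.955) and *Mgmt* by -0.40 (SE 0.96; limma adjusted p = 0.973). The other genes differed by 0.18 (*Cetn2*), 0.13 (*Xpa*), -0.03 (*Ercc5*), -0.01 (*Gadd45a*) and -0.04 (*Mpg*, fit without a filter). Arrays did not overlap for 1 of the 8 genes, *Xpc*, against 35.4% of all genes. Over all genes 0 of 19011 (0%) passed, with 1199 (6.31%) at an unadjusted p under 0.05. In simulated data of this comparison, log2 changes of 2 were called for 7.5% and changes of 4 for 62.5% of 40 planted genes, so changes of 2 or less were seldom called there. The hybridization controls were lower on the control arrays here too, and their part was not tested.

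Between the SQ-diEG doses, *Xpc* was lower at 25 than at 5 mg/kg by -1.74 (SE 0.96) and *Rad23b* by -1.59 (SE 0.96), while *Cetn2*, *Xpa* and *Mpg* stood at 1.18 (SE 0.99), 0.91 (SE 0.93) and 0.85 (SE 0.91). The arrays of the doses did not overlap for these 5 genes of the 8, and for 33.5% of all genes. *Mgmt*, *Ercc5* and *Gadd45a* differed by -0.58, -0.26 and -0.11. With 1 array left out *Xpc* stayed between -1.81 and -1.67, whereas *Rad23b* moved to -0.67 without the first 5 mg/kg array and *Cetn2* to 0.32 without the first 25 mg/kg array. *Xpa* then ranged from 0.47 to 1.35, and the sign turned for *Mgmt* (-1.25 to 0.10), *Ercc5* (-1.34 to 0.83) and *Gadd45a* (-1.38 to 1.15). By limma 0 of 19011 genes (0%) passed between the doses, and 983 had an unadjusted p under 0.05.

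The wider repair machinery was read from 8 lists of 118 genes in all, of which 105 are on the array and 104 were tested. With DTIC 61 of the 104 were higher and 43 lower than in the other groups, with a median difference of 0.09, where 49.9% of all genes were higher, and none was called. The other recognition genes of nucleotide excision repair were higher for 9 of 11 (median 0.42), among them the ultraviolet damage sensor *Ddb2* at 0.62 (SE 0.74). Opening and incision genes were higher for 5 of 13 (median -0.30), with the nuclease partners *Ercc1* and *Ercc4* at -0.03 and -0.30 and the single-strand binding protein gene *Rpa1* at 0.21. Gap filling and ligation genes were higher for 9 of 12 (median 0.39). The other base excision genes, which include further glycosylases and the enzymes that act after a base is cut out, were higher for 7 of 17 (median -0.09), with the endonuclease *Apex1* at -0.08, the polymerase *Polb* at -0.71 and the scaffold *Xrcc1* at 0.90. The dioxygenases *Alkbh2* and *Alkbh3*, which, as *Mgmt* does, reverse alkylation directly, stood at 0.23 and 0.50.

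Mismatch repair, which reads the mispairs that unrepaired methylguanine gives, had 3 of 6 genes higher (median -0.29), with *Msh6* at 1.23 (SE 0.75) and *Pms2* at -0.72 (SE 0.79). Crosslink and break repair genes were higher for 13 of 23 (median 0.03), and checkpoint and damage response genes for 13 of 20 (median 0.16). Among the p53 targets of the last list, *Cdkn1a* stood at 0.36, *Mdm2* at 0.55 and *Ccng1* at -1.10 (SE 0.75). *Cdkn1a* read 6.02 and 10.04 on the DTIC arrays and *Mdm2* 9.10 and 6.12, so the DTIC arrays lay farther apart than their mean lay from the rest. For SQ-diEG at 25 mg/kg against control, 57 of the 104 genes were higher (median 0.16; 50.8% of all genes), and none was called. Of the 105 genes on the array, 3 exceeded the detection level on any array, where 2.63% of all 19505 genes did. These were *Cetn4* and *Fancl* on 1 array each and *Pold2* on 9. Those 3 names were chosen after their values were seen.

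**Figure D4:**
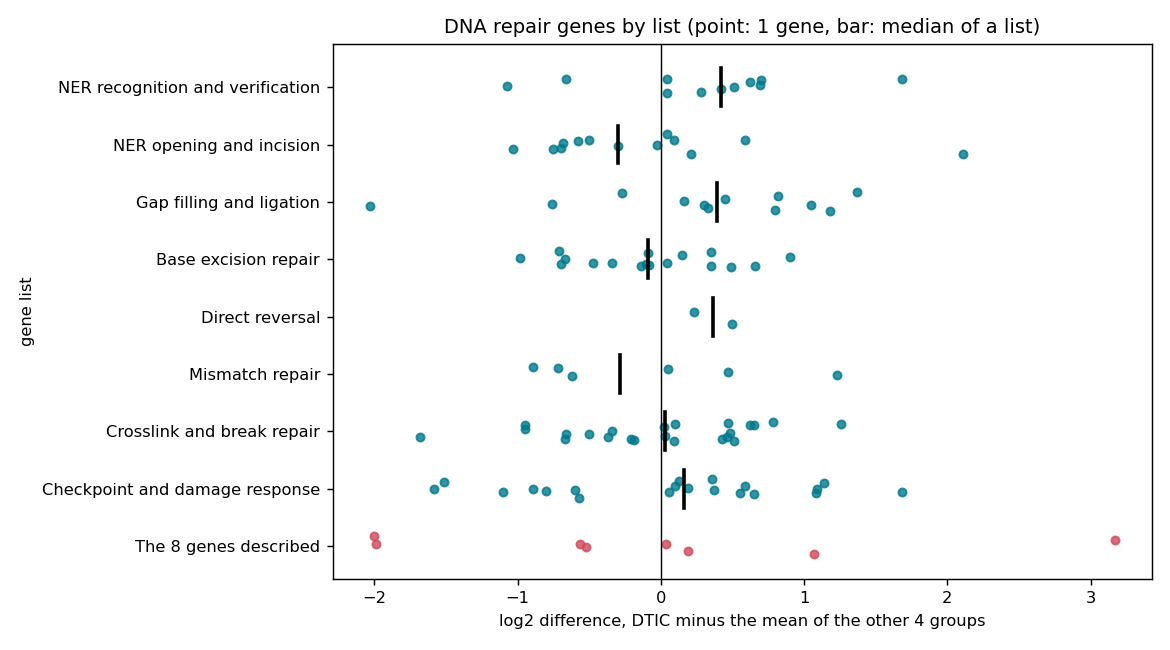
Log2 difference of DTIC minus the mean of the other 4 groups (horizontal axis) for the 104 tested genes of 8 repair lists and the 8 genes described (rows). Points are genes and bars are list medians. List medians lie between -0.30 and 0.42, and *Cetn2* at 3.17 is the point farthest to the right.

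Genes were also ranked by the likeness of their pattern to each member, as the Pearson r of log2 values over the 10 arrays among the tested genes, leaving out clone-type names (17985 candidates for *Xpc*). Closest to *Xpc* were *Grk1* (r = 0.94), *Wfdc10* (0.91) and *Ccdc174* (0.89). The closest gene was *Ulk2* for *Rad23b* (0.92), *Cdkn1c* for *Cetn2* (0.92), *Gadd45g* for *Xpa* (0.91), *Vmn1r31* for *Ercc5* (0.93), *Klk6* for *Mgmt* (0.92), *Ubtfl1* for *Mpg* (0.95) and *Itgb4* for *Gadd45a* (0.94). No member was the closest gene of another member. With 7 tested members among so many candidates this says little about them, and *Mpg*, which was not tested, could not be a closest gene. The points are the same 10 arrays throughout, and values this high are the top of many candidates over few arrays.

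Over the 5 groups, the spread of group means was widest for *Cetn2*, *Xpc* and *Gadd45a*, with SDs of 1.52, 1.44 and 1.05 against a median of 0.64 over all genes. This spread contains the DTIC, model and 5 mg/kg values behind the choice of genes and carries no test. Means of 2 arrays also differ through the spread between arrays alone. The SD of group means was 0.87 for *Rad23b*, 0.74 for *Ercc5*, 0.64 for *Mpg*, 0.37 for *Mgmt* and 0.36 for *Xpa*. The SD between the 2 arrays of a group, pooled over groups, was 0.42 to 1.20 for the 8 genes and 0.91 for the median gene.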

How the data were processed

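Lung RNA was measured on 10 Affymetrix arrays. The submitters' processing notes name RMA, the Affymetrix Expression Console and the Transcriptome Analysis Console; versions and exact steps were not given in the sources used here. Log2 is the scale the values show. The authors deposited log2 values, 1 per probe set and array, for 28846 probe sets. The number of arrays limits the precision. The labels' protocols describe a 3′ labelling kit, whereas probe sets are named as on whole-transcript arrays.

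The platform annotation named 19572 probe sets, and the probe set of highest mean stood for each of 19505 genes. The filter kept 19011 genes at or above the 40th percentile, over probe sets other than controls, of 2 or more arrays. A limma 3.58.1 model in R 4.3.3 held all 10 arrays (group means, lmFit and eBayes; 5 residual and 51 prior degrees of freedom), with Benjamini-Hochberg adjustment over all tested genes and a threshold of 0.05. DTIC was set against the mean of the other 4 group means. Detection was judged against the negative controls of each array (95th percentile). Simulated data with known changes were used as a test: for DTIC against the other groups over 19011 genes, log2 changes of 2 were called for 15% and changes of 4 for 95% of 40 planted genes.

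The members, gene lists and tests were chosen with earlier results of these data known. The rule was to name all 8 members in every comparison, with paralogues, partners and markers from a set list, and the genes most like each member by Pearson r. Alternatives covered normalization, the filter, probe set averaging, eBayes options, a block for the replicate number and leaving out each array. Array coordinates are not given because the array's build was not named, and promoter coordinates are RefSeq's.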

Additional observations from a re-analysis of the deposited data

How the results depend on the processing

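Differences of the 7 tested members moved by less than their spread within groups under quantile normalization and median centring. No filter, the 60th percentile filter (which Rad23b did not pass), averaging of probe sets and eBayes with trend and robust options left differences unchanged. For genes with 1 probe set these settings can change only the SE and the adjusted p. Mpg was fitted without a filter only, and its differences were not refitted under other settings. A replicate block cannot change a group difference, since every group has 1 array of each number. The DTIC differences of Xpc and Cetn2 were thus again -2.00 and 3.17. With that block 0 genes were called in each of the 7 comparisons. Between groups, deviations from group means on arrays with the same replicate number correlated at -0.022 to 0.05. The hybridization controls averaged higher on the second array than on the first in every group. Whether the replicate number marks a batch was not tested. Leaving out 1 array at a time, the DTIC difference ranged from -2.29 to -1.71 for Xpc, 2.13 to 4.21 for Cetn2, -2.83 to -1.14 for Gadd45a, -1.06 to -0.07 for Mgmt and -0.75 to -0.30 for Rad23b, and included 0 for Xpa (-0.13 to 0.51) and Ercc5 (-0.52 to 0.59). Where this left a group with 1 array, that array was assumed to vary as the other groups do. For SQ-diEG at 25 mg/kg against control the ranges were -2.39 to -0.07 for Xpc and 0.14 to 1.27 for Rad23b, and the direction turned for Cetn2 (-1.08 to 1.44), Xpa (-0.25 to 0.52), Ercc5 (-1.12 to 1.06), Mgmt (-1.42 to 0.62) and Gadd45a (-1.27 to 1.26). Against the model group the ranges at 25 mg/kg were -2.57 to -0.05 for Gadd45a, -2.89 to -0.71 for Ercc5 and 0.35 to 2.08 for Cetn2. The sign turned for Rad23b with DTIC (-1.05 to 0.23) and at 25 mg/kg (-0.78 to 0.50), for Xpa with DTIC (-0.10 to 0.54) and for Mgmt (-0.82 to 0.53) and Cetn2 (-0.24 to 0.30) at 5 mg/kg. In SQ-diEG at 25 mg/kg against control 0 to 1 genes were called with an array left out (Gm20736 without the second control array) and 1, Gm20871, with the 60th percentile filter, which tests fewer genes. Both were named after their values were seen. With detection judged at the negative controls' 90th percentile instead, Xpc and Cetn2 were each detected on 1 array and no other member was. Of all genes, 1.45% to 1.87% lay above that lower level on an array. Each member has 1 probe set, so a reading of each probe set alone was not run. The contrast without the control group, chosen after seeing the data, turned Ercc5 to -0.13 and kept the sign of the other 6 tested members. Signal over background limits every value here, since 7 of the 8 genes stayed under the negative controls' 95th percentile on every array. The low agreement between arrays, an r of 0.111 to 0.237 over the tested genes, limits them too.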

Other observations

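Pold2, a listed repair gene that is not a member, encodes an accessory subunit of DNA polymerase delta, the enzyme that fills gaps after excision repair. Its probe set had a mean of 12.27 over the 10 arrays, the highest of all 19505 genes. It exceeded the negative controls' 95th percentile on 9 of 10 arrays. Gapdh exceeded that level on 4 arrays and Actb on 0, and on every array the positive controls had a lower median than the negative ones. Whether the rank reflects the abundance of Pold2 RNA was not tested. Pold2 ranged from 9.80 to 13.41 with a median of 12.70. Both extremes were water-treated: 9.80 on the second control array and 13.41 on the first model array. Its DTIC difference from the other groups was -0.27 (SE 0.80). Pold2 was named after its values were seen.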
